A study of Mus musculus with 8 samples.

Results

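The collagen genes of the mouse were taken as every line of the deposited count table whose gene name is Col, digits, a, digits and nothing more. This rule found 44 genes among 23282 lines, each encoding 1 chain of a collagen. Of these, 41 had at least 1 count in some library, 30 passed the filter on low counts and were tested, and 22 had a mean of at least 5 CPM over the 8 libraries. Levels are normalised CPM, the counts of a gene brought to a common library size by the library total and its TMM scaling factor. The samples are intestinal tissue of wild-type C57BL/6 mice in 4 groups of 2 libraries, named below by their labels. The group NC received buffer by gavage and no dextran sodium sulfate (DSS), a polysaccharide that damages the gut lining. PC received buffer and then 3% DSS in the drinking water for 6 days, Ex received 1 mg a day of exosomes from bovine colostrum (vesicles shed into first milk) for 3 weeks and no DSS, and ExDSS received those exosomes and then the same DSS. The sources used here give neither the part of the intestine nor the age of the mice, and do not say whether both libraries of a group stem from different animals, so the spread on which p-values rest may be technical.

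Collagens are triple helices of 3 chains, built from 1, 2 or 3 different gene products. The fibrillar types I, III and V form the banded fibrils that give the gut wall its strength, and fibroblasts and smooth muscle cells secrete most of them. Type IV collagen forms the sheet-like network of basement membranes under epithelium and around vessels and muscle cells, with the chains of Col4a1 and Col4a2 as its general form. In colitis the matrix is broken down by collagenases and laid down again during repair.

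The genes of the main type IV form lie head to head on chromosome 8, with Col4a1 on the minus strand and Col4a2 on the plus strand. In the RefSeq promoter table (GRCm38.p6) and the gene annotation, the annotated first exons share 22 bases, chr8:11312805-11312826, which are 5′ untranslated sequence of both genes. This stretch is shown because 1 short sequence carries the start of both chains compared below. The plus strand is printed, with the letters GGGCGG in capitals, a motif found in 32.7% of the 32851 upstream windows of 250 bases in the table. That share is for longer sequence before a start and is no rate for these 22 bases.
Col4a1 and Col4a2: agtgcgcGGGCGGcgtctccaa
In the 250 bases before each start, both strands searched, the Col4a1 window held 1 CCAAT and the Col4a2 window 1 CCAAT and 2 GGGCGG, and CCAAT was found in 33.8% of all windows. No TATAAA was found in either window, against 12.4% of all windows. These matches are letters in a window and say nothing about binding.

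Total counts were between 8813622 and 12308537 in 7 libraries and 1163147 in Ex 2, where the collagen genes together held 492 counts. A count of 3, the floor used here, equals 4.47 CPM in Ex 2 and 0.199 to 0.412 CPM in the others. Genes with any count numbered 16123 to 16790 in NC 1, PC 1, PC 2 and Ex 1, against 8760 to 12683 in NC 2, Ex 2, ExDSS 1 and ExDSS 2. The summed CPM of 6 neutrophil and acute inflammation genes (S100a8, S100a9, Il1b, Saa3, Lcn2 and Cxcl5) was 7925 and 4834 in the libraries labelled ExDSS and 32.8 and 53.7 in Ex, as DSS and no DSS would order them. It went against the labels in the other 2 groups, at 5950 and 5960 in the libraries labelled NC, without DSS, and 12.3 and 12.1 in those labelled PC, with DSS. Whether the labels NC and PC hold was not tested: group names below mean the libraries so labelled. The sign of each PC against NC value, and each interaction, rest on these 2 labels. So do ExDSS against PC and Ex against NC, whose comparators carry these labels. By the sums above, both set libraries with high inflammation genes against libraries with low levels. Pancreatic acinar genes summed to 96202 CPM in NC 2 and 237696 CPM in ExDSS 1, and to at most 488 CPM in the other libraries. Their part in the collagen values was not tested.

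Fibroblast markers, 10 genes, were all detected in 7 libraries, and 6 of them were at 0 in Ex 2. Their sum was 3637 and 3021 CPM in NC, 1354 and 1990 in PC, 2646 and 2587 in Ex, and 2844 and 3229 in ExDSS. In Ex 2, Vim alone held 2566 CPM of this sum and Dcn 14.9. The 8 smooth muscle markers summed to between 3160 and 6915 CPM outside Ex 2 and to 750 CPM in Ex 2. The 8 endothelial markers summed to 112 and 101.5 CPM in NC, 67.0 and 70.1 in PC, 75.4 and 1.49 in Ex, and 148 and 152 in ExDSS. The 7 epithelial markers summed to 3041 to 4413 CPM outside Ex 2 and to 41.7 CPM in Ex 2, so the labelled tissue was not borne out by its markers in that library. In bulk tissue, fewer cells of a type and less RNA per cell cannot be told apart.

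No collagen gene was called between any 2 groups. With the quasi-likelihood F test of edgeR and p-values adjusted by Benjamini-Hochberg over all 14567 genes (threshold 0.05), 0 of 30 collagen genes were called in PC against NC, ExDSS against PC, Ex against NC or ExDSS against Ex, where the share of all genes called was 0% each time. At an unadjusted p under 0.05 the numbers were 2, 7, 3 and 6 of 30 collagen genes, and 363, 2763, 774 and 2881 of all genes. The interaction, which asks whether DSS acted differently with and without exosomes, also called 0 of 30, against 42 genes or 0.288% of all genes tested. At an unadjusted p under 0.05 it held 6 of 30 collagen genes and 2741 (18.8%) of all genes. On the same 5 contrasts, in this order, DESeq2 called 0, 2, 0, 2 and 2 of 30 collagen genes, against 0.59%, 10.5%, 2.31%, 14% and 11.5% of all genes tested. The test of limma-voom called 0 of 30 in each, against 0.0137%, 7.67%, 0%, 2.89% and 0.632% of all genes. Since 2 libraries against 2 allow no exact two-sided permutation p below 0.333, the levels below are given by library.

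The most abundant member was Col3a1, the single chain of type III collagen, on chromosome 1 (45311538 to 45349706, plus strand; coordinates as in the table, which match GRCm38). Its level was 666 and 759 CPM in NC, 328 and 445 in PC, 371 and 7.45 in Ex, and 978 and 671 in ExDSS. Both NC and both ExDSS libraries stood above both PC libraries and both Ex libraries. The edgeR log2 fold change was -0.88 ± 1.48 (SE, adjusted p = 1.0) in PC against NC and 1.09 ± 1.49 (adjusted p = 0.821) in ExDSS against PC.

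Type I collagen joins 2 chains of Col1a1 to 1 of Col1a2, and the libraries did not order these genes alike. Col1a1, on chromosome 11 (94936270 to 94951856), was at 362 and 277 CPM in NC, 80.7 and 116 in PC, 105 and 11.9 in Ex, and 390 and 165 in ExDSS. Again NC and ExDSS lay above PC and Ex without overlap, with a log2 fold change of -1.70 ± 1.34 (SE, edgeR adjusted p = 1.0) in PC against NC and 1.496 ± 1.33 (adjusted p = 0.666) in ExDSS against PC, the latter 0.73 without ExDSS 1. Col1a2, on chromosome 6 (4505697 to 4541543), was at 355 and 50.4 CPM in NC, 304 and 409 in PC, 324 and 16.4 in Ex, and 61.1 and 91.1 in ExDSS. Here both ExDSS libraries lay below both PC libraries (log2 fold change -2.23 ± 1.47, edgeR adjusted p = 0.482), and the NC libraries lay on either side.

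Per kilobase of exon the mean levels over the 8 libraries were 94.9 CPM for Col3a1, 40.1 for Col1a1, 39.2 for Col1a2 and 23.8 for Col4a1. The kit reads the 3′ ends of transcripts, so counts need not grow with length, and without division by length the means were 528, 189, 201 and 157 CPM.

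Type V collagen, which nucleates fibrils and limits their width, has chains from Col5a1, Col5a2 and Col5a3. Col5a2 was at 95.9 and 66.2 CPM in NC, 28.9 and 38.5 in PC, 26.5 and 0 in Ex, and 14.97 and 31.4 in ExDSS. Col5a1 was at 71.5 and 34.3 CPM in NC, 19.4 and 26.9 in PC, 23.0 and 14.9 in Ex, and 61.8 and 46.3 in ExDSS. Both were lower in PC than in NC in every library (Col5a1 overlapped with library totals alone), while in ExDSS Col5a1 stood above PC and Col5a2 did not. Col5a3, the least abundant of these chains, was at 11.6 and 13.1 CPM in NC, 4.44 and 4.24 in PC, 8.59 and 0 in Ex, and 6.87 and 5.79 in ExDSS. Col27a1, a fibrillar chain best known from cartilage, was at 13.1 and 4.198 CPM in NC, 8.88 and 6.68 in PC, 6.75 and 55.1 in Ex, and 13.2 and 0 in ExDSS, with its highest value resting on 37 counts in Ex 2. The cartilage chain Col2a1 had no count, and Col11a1, Col11a2 and Col24a1 had 46, 6 and 55 counts in all.

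**Figure D1:**
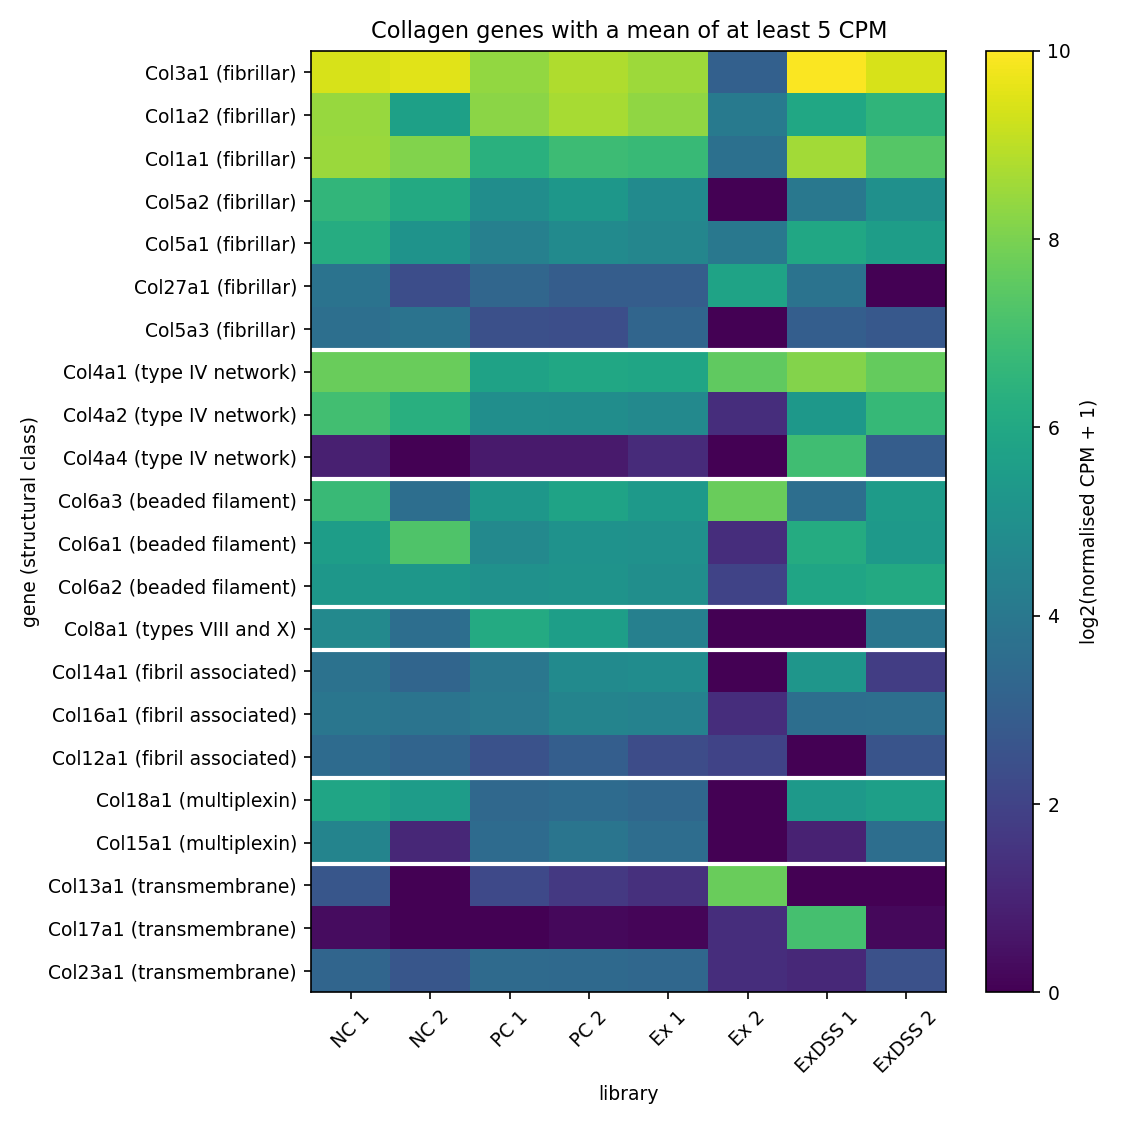
Level of the 22 collagen genes with a mean of at least 5 CPM in each of the 8 libraries, as log2(normalised CPM + 1) in colour, with genes grouped by structural class. Col1a1, Col3a1 and Col4a1 are brighter in NC and ExDSS than in PC and Ex 1, Col1a2 is brightest in NC 1, PC 1, PC 2 and Ex 1, and Col13a1 and Col17a1 are high in 1 library each.

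Among the type IV genes, Col4a1 (chromosome 8, 11198423 to 11312826, minus strand) was at 209 and 210 CPM in NC, 53.4 and 61.1 in PC, 57.4 and 186 in Ex, and 282 and 198 in ExDSS. The lowest of the NC and ExDSS libraries, at 198 CPM, stood above both PC libraries, and the Ex libraries differed from each other by more than the NC libraries did. The log2 fold change was -1.87 ± 1.27 (SE, edgeR adjusted p = 1.0) in PC against NC and 2.07 ± 1.27 (adjusted p = 0.432) in ExDSS against PC. Its neighbour Col4a2 (11312829 to 11449287, plus strand) was at 125 and 78.4 CPM in NC, 30.1 and 29.1 in PC, 24.9 and 1.49 in Ex, and 39.5 and 103 in ExDSS. NC lay above PC and so did ExDSS, though ExDSS and PC overlapped with library totals alone, with log2 fold changes of -1.78 ± 1.36 (SE, edgeR adjusted p = 1.0) in PC against NC and 1.27 ± 1.34 (adjusted p = 0.745) in ExDSS against PC, the latter 0.41 without ExDSS 2. The lines of these 2 genes in the count table do not overlap.

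The other type IV chains belong to specialised basement membranes and were scarce in most libraries. Col4a4 was at 0.863 and 0 CPM in NC, 0.655 and 0.628 in PC, 1.33 and 0 in Ex, but at 122 and 6.79 in ExDSS, from 885 and 81 counts. It had the smallest p of the collagen genes in ExDSS against PC, with a log2 fold change of 6.62 ± 2.31 (SE, edgeR adjusted p = 0.228; over the alternatives from 0.00279, with DESeq2, to 0.821). Over libraries left out this value ran from 3.37, without ExDSS 1, to 7.52. Col4a3 was highest in the same ExDSS 1 library at 26.0 CPM, reached 7.73 CPM in NC 2, and was at most 1.49 CPM elsewhere. Col4a5 and Col4a6 were at most 2.25 CPM in any library. ExDSS 1 and NC 2 are the libraries with high pancreatic acinar counts, and whether these counts have a part in Col4a3 and Col4a4 was not tested.

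Summed over their members, the fibrillar genes were at 1576 and 1211 CPM in NC, 774 and 1047 in PC, 867 and 106 in Ex, and 1526 and 1011 in ExDSS. The type IV genes together were at 338 and 296 CPM in NC, 88.1 and 95.6 in PC, 88.2 and 191 in Ex, and 469 and 307 in ExDSS. For type IV, both NC and both ExDSS libraries stood above both PC libraries under all 5 library scalings tried. The fibrillar sum overlapped between ExDSS and PC, and with library totals alone its mean was 1135 CPM in ExDSS against 1165 in PC, so that direction depends on the scaling.

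The ratio of fibrillar to type IV counts is taken within a library and does not depend on scaling. It was 4.67 and 4.09 in NC, 8.79 and 10.95 in PC, 9.82 and 0.555 in Ex, and 3.25 and 3.29 in ExDSS. PC stood above NC and ExDSS without overlap, and Ex 1 lay between the PC libraries. On the log2 scale, PC exceeded NC by 1.17 and ExDSS was below PC by a difference of -1.59, values given without a test. Type IV genes made up 14.9% and 16.1% of all collagen counts in NC, 7.99% and 6.77% in PC, 7.55% and 26.0% in Ex, and 19.9% and 19.6% in ExDSS, while fibrillar genes held 64.4% to 74.2% in every library except Ex 2, at 14.4%. Ex against NC came to -0.90 and ExDSS against Ex to 0.49 with Ex 2, but to 1.17 and -1.59 without it, so both directions rest on that library. A mean of log2 CPM over the members, which gives rare chains equal weight, turned the PC against NC difference to -0.49, so its sign depends on the weight given to rare chains.

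**Figure D2:**
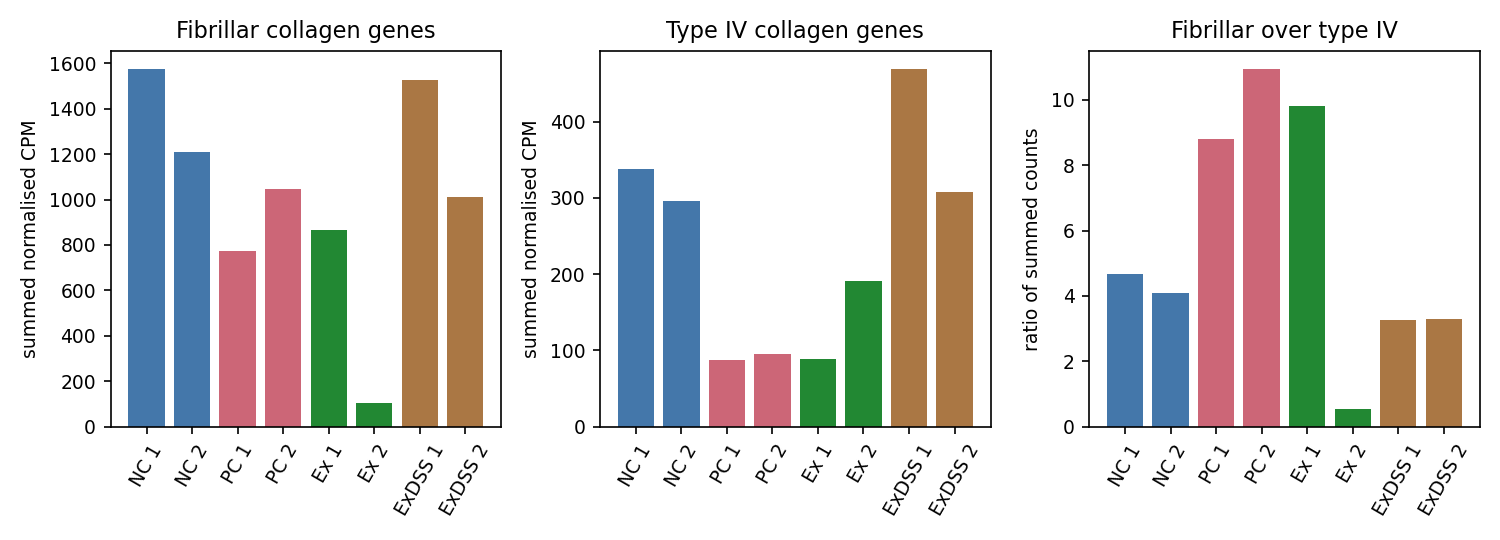
Summed normalised CPM of the 11 fibrillar genes (left) and the 6 type IV genes (middle), and the ratio of their summed counts (right), with 1 bar for each library and axes from 0. The ratio is 8.79 to 10.95 in PC 1, PC 2 and Ex 1, 3.25 to 4.67 in NC and ExDSS, and 0.555 in Ex 2.

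Chains of 1 collagen did not keep a fixed proportion across libraries. Col1a2 made up 49.5% of the counts of Col1a1 and Col1a2 in NC 1 (exact 95% interval 48.6 to 50.5%) and 15.4% in NC 2 (14.2 to 16.6%). In PC its share was 79.0% and 77.9%, in Ex 1 75.6%, in Ex 2 57.9% (11 of 19 counts, interval 33.5 to 79.7%), and in ExDSS 13.5% and 35.5%. These intervals treat each count as independent and leave out the spread between libraries. The labels mention no molecular identifiers, so repeated reads of 1 molecule could make the intervals too narrow. The 3 lowest shares are those of NC 2, ExDSS 1 and ExDSS 2, which are also 3 of the 4 libraries with at most 12683 genes detected, and whether library makeup has a part in the share was not tested.

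For Col4a2 the share of the counts of Col4a1 and Col4a2 was 27.2% to 37.3% in 6 libraries. It lay outside that range in ExDSS 1, at 12.3% (10.98 to 13.7%), and in Ex 2, at 0.794% (1 of 126 counts, interval 0.0201 to 4.34%). Col5a2 held 53.5% to 65.9% of the counts of Col5a1 and Col5a2 in NC, PC and Ex 1, but 19.5% (16.3 to 23.0%) and 40.4% (37.2 to 43.6%) in ExDSS. Col3a1 held 45.9% to 48.2% of the type I and III counts in NC 1, PC 1, PC 2 and Ex 1, against 69.9% in NC 2 and 68.4% and 72.3% in ExDSS. The Col3a1 share and the Col1a2 share are not independent, since both are taken over the Col1a2 counts.

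Type VI collagen forms beaded filaments that tie cells to the surrounding matrix, from chains of Col6a1, Col6a2 and Col6a3. Col6a1 was at 46.9 and 150 CPM in NC, 25.3 and 33.1 in PC, 32.3 and 1.49 in Ex, and 69.2 and 40.8 in ExDSS. Col6a2 was at 38.2 and 38.5 CPM in NC, 32.7 and 34.6 in PC, 29.5 and 2.98 in Ex, and 58.5 and 67.1 in ExDSS. Both lay higher in ExDSS than in PC without overlap, except that Col6a2 overlapped with library totals alone. Col6a3 was at 109 and 11.3 CPM in NC, 38.6 and 54.4 in PC, 41.3 and 207 in Ex, and 11.4 and 44.4 in ExDSS. Col6a3 held 39.97% to 56.3% of the type VI counts in NC 1, PC and Ex 1, 29.1% in ExDSS 2, 8.19% in ExDSS 1, 5.63% in NC 2 and 97.9% in Ex 2 (139 of 142 counts). Col6a4 and Col6a5 were at most 2.29 CPM and Col6a6 had no count.

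**Figure D3:**
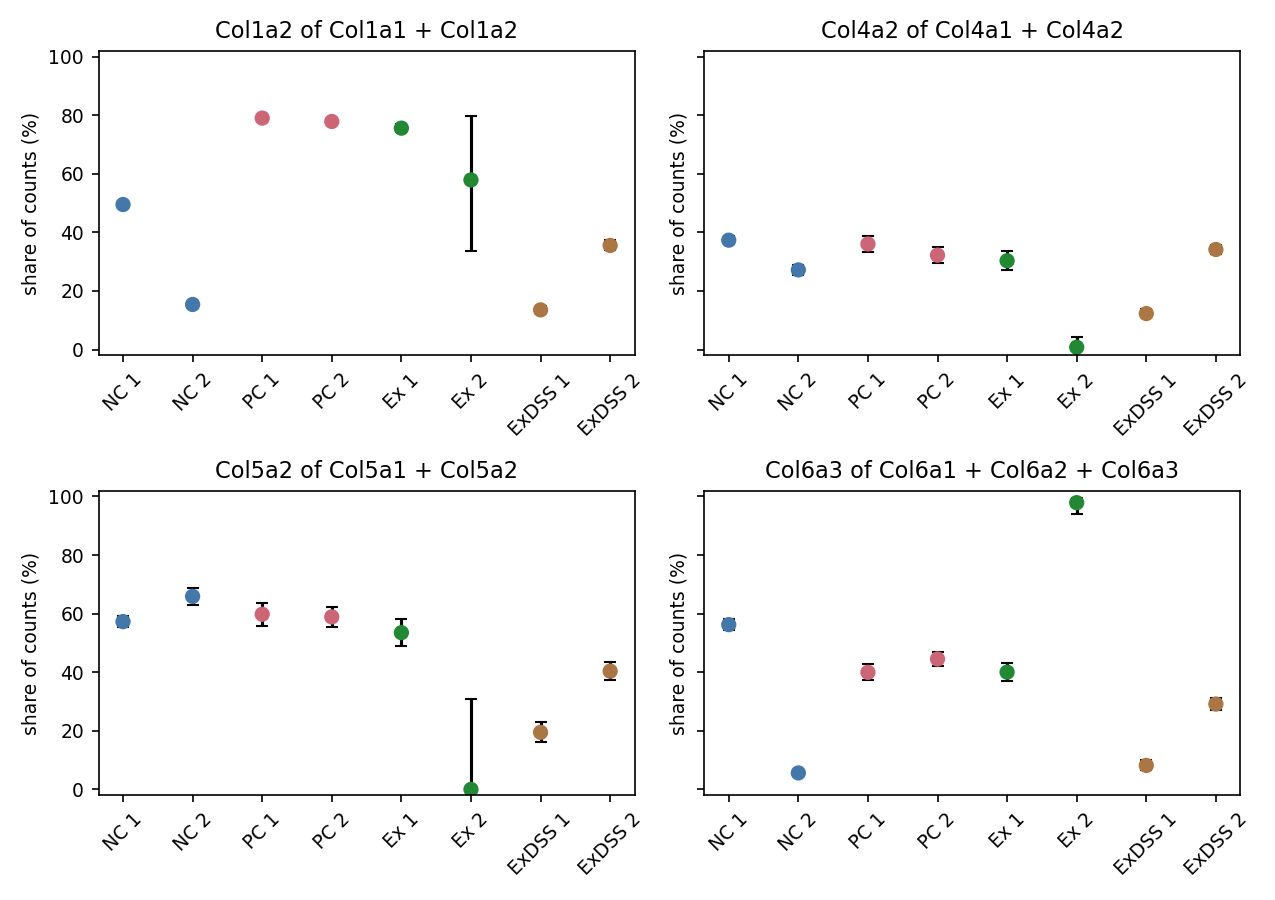
Share of counts (%) held by 1 chain among the chains of its collagen, in each library, with bars for the exact 95% interval of counting error. The Col1a2 share is 75.6% to 79.0% in PC 1, PC 2 and Ex 1 and at most 35.5% in NC 2 and ExDSS, and Ex 2 has the widest intervals.

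The multiplexins are basement membrane collagens that carry sugar chains. Col18a1, the source of the fragment endostatin, was at 57.6 and 44.9 CPM in NC, 9.39 and 10.3 in PC, 8.997 and 0 in Ex, and 40.9 and 49.6 in ExDSS. It followed the order of Col4a1 and Col4a2, with log2 fold changes of -2.38 ± 1.55 (SE, edgeR adjusted p = 1.0) in PC against NC and 2.20 ± 1.54 (adjusted p = 0.524) in ExDSS against PC. Col15a1 did not follow it, at 22.0 and 1.14 CPM in NC, 10.4 and 13.7 in PC, 10.8 and 0 in Ex, and 0.961 and 11.3 in ExDSS. The tests of Col1a2 and Col18a1 were chosen for printing after their values were seen.

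Fibril-associated collagens sit on the surface of fibrils. Col14a1 was at 12.7 and 8.59 CPM in NC, 14.6 and 26.4 in PC, 27.8 and 0 in Ex, and 37.1 and 2.52 in ExDSS. Col16a1 was at 14.3 and 13.6 CPM in NC, 15.4 and 21.9 in PC, 20.8 and 1.49 in Ex, and 11.4 and 11.7 in ExDSS. Col12a1 was at 10.4 and 8.40 CPM in NC, 4.73 and 6.99 in PC, 3.99 and 2.98 in Ex, and 0 and 5.03 in ExDSS. Col16a1 was slightly higher in PC than in NC and ExDSS in every library, and Col12a1 was lower in PC than in NC, with overlap under library totals alone. Col8a1, a short chain found in vessel walls, was highest in PC at 67.9 and 48.0 CPM, against 25.1 and 11.2 in NC, 19.4 and 0 in Ex, and 0 and 14.3 in ExDSS.

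The transmembrane collagens showed single libraries that stood apart. Col13a1, found at cell adhesion sites and the neuromuscular junction, was at 5.31 and 0 CPM in NC, 3.64 and 2.20 in PC, 1.64 in Ex 1 and 0 in both ExDSS libraries, but at 212 CPM (142 counts) in Ex 2. It had the smallest p in Ex against NC, with a log2 fold change of 5.30 ± 2.23 (SE, edgeR adjusted p = 0.930), which became -0.67 without Ex 2 and 12.75 without NC 1. Against PC it was at least 8.80-fold lower in ExDSS (edgeR adjusted p = 0.228) and against Ex at least 321-fold lower (adjusted p = 0.162), both computed with ExDSS at the floor of 3 counts per library, the second resting on Ex 2. Col17a1, a hemidesmosome collagen of skin-type epithelium, was at 131 CPM (954 counts) in ExDSS 1 and at most 1.49 CPM elsewhere, and did not pass the filter. Its line spans the small RNA gene Snora19. Col23a1 was at 8.63 and 5.44 CPM in NC, 10.05 and 9.66 in PC, 9.20 and 1.49 in Ex, and 1.24 and 4.61 in ExDSS. Col25a1 had 215 of its 236 counts in NC 2, was at 0 in Ex and ExDSS and reached 0.236 CPM in PC, with a log2 fold change of -6.40 ± 2.97 (SE, edgeR adjusted p = 1.0) in PC against NC. Against NC it was at least 4.54-fold lower in Ex (edgeR adjusted p = 0.930), computed with Ex at the floor of 3 counts per library. Both values rest mainly on NC 2.

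The other 22 genes, under a mean of 5 CPM, included 19 with counts, whose means ran from 0.00982 to 4.82 CPM. Col9a2, a cartilage chain, was at 0 in NC and ExDSS and had 10 and 9 counts in PC, at least 2.96-fold higher in PC than in NC (edgeR unadjusted p = 0.0285, adjusted p = 1.0), a level close to the floor. Col7a1, the anchoring fibril collagen of stratified epithelium, had 21 counts in all.

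Counts of genes whose libraries did not overlap between groups describe the 30 tested members. In PC against NC, 12 of the 30 were lower in both PC libraries, 11 of them among the genes above 5 CPM, where 23.6% of all genes tested were lower in this way. A further 8 were higher, where 31% of all genes were. Col25a1, among the 12, passed the filter only through the NC libraries, so its lower place in PC was fixed by the filter. In ExDSS against PC, 10 were higher (18.9% of all genes) and 12 lower (45.4%). The genes above 5 CPM that were lower in PC than in NC were Col1a1, Col3a1, Col4a1, Col4a2, Col5a1, Col5a2, Col5a3, Col6a1, Col6a2, Col12a1 and Col18a1, of which Col5a1, Col6a2 and Col12a1 overlapped under library totals alone. Those higher in ExDSS than in PC were Col1a1, Col3a1, Col4a1, Col4a2, Col4a4, Col5a1, Col5a3, Col6a1, Col6a2 and Col18a1, of which Col4a2, Col5a3 and Col6a2 overlapped under library totals alone. Col4a4 reached a mean above 5 CPM only through ExDSS (122 and 6.79 CPM), so its direction among these genes was fixed by that choice. Both comparisons use the same PC libraries. The median log2 fold change of the 30 was -0.26 in PC against NC and -0.71 in ExDSS against PC, against 0.10 and -0.51 for all genes tested. In Ex against NC, 13 were lower (22.9% of all genes) and Col4a5 alone higher (11.1%), which overlapped under library totals alone. In ExDSS against Ex, 9 were higher (17%) and 2 lower (17%), Col13a1 and Col4a5. Both directions of Col4a5 rest on 1 count in Ex 2, where a gene under 4.47 CPM cannot be told from 0. Among the 13, Col6a4 was under that level in both NC libraries, and Col25a1 passed the filter only through NC.

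**Figure D4:**
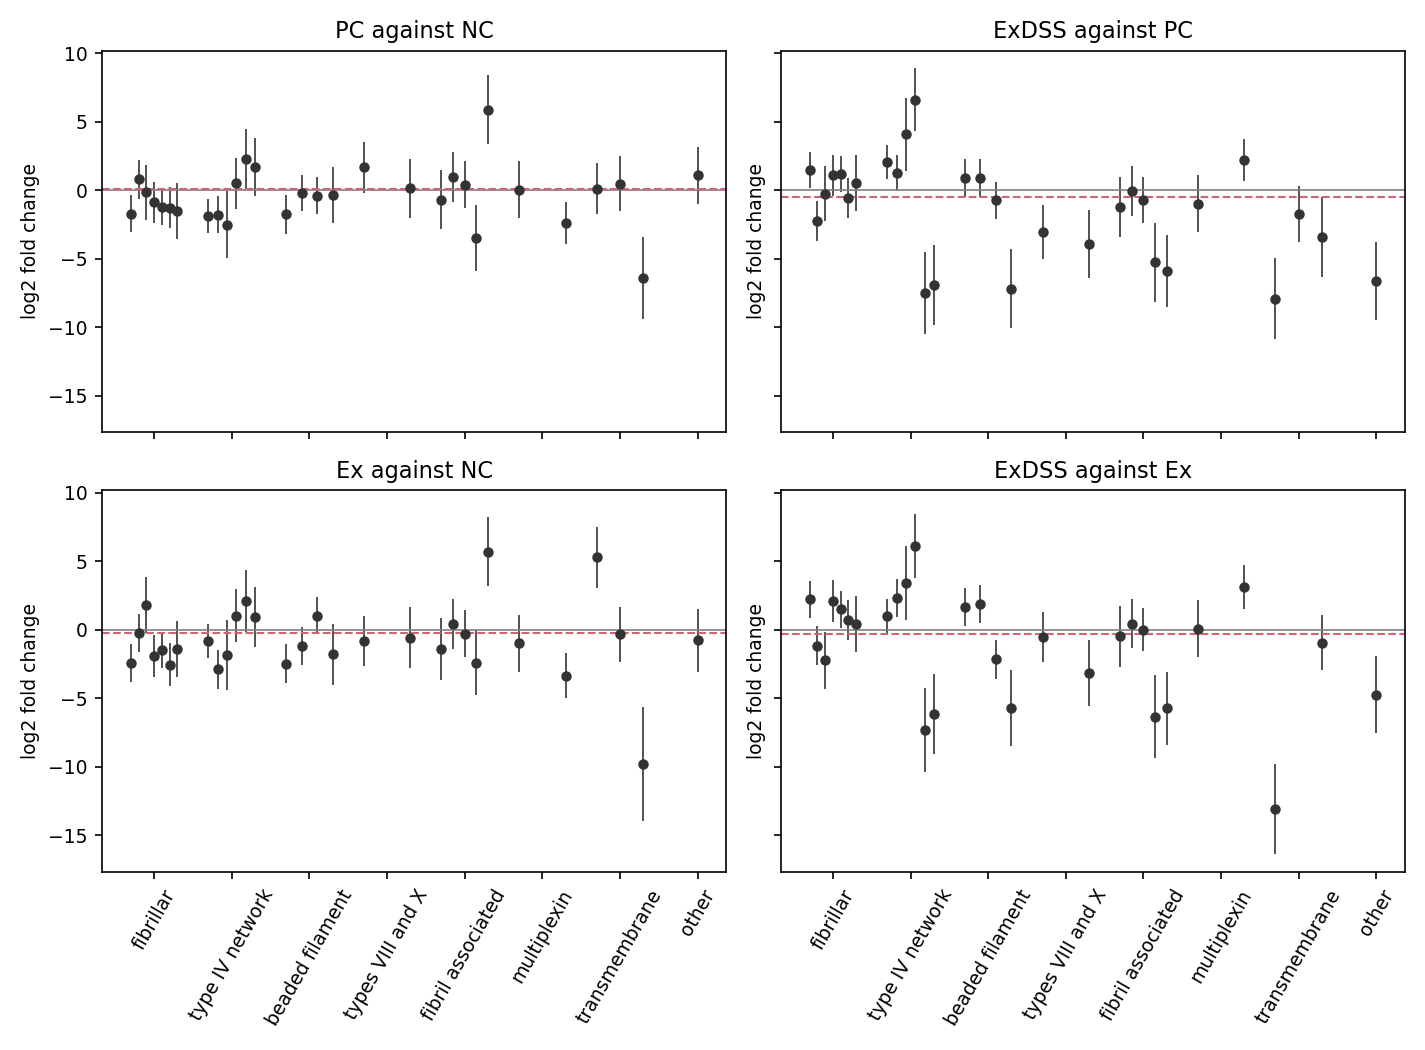
Log2 fold changes (points) with their SE (bars) of the collagen genes tested in 4 comparisons, by structural class and in alphabetical order within it, leaving out genes with no count in either group; the dashed line is the median of all genes tested. The points furthest from 0 belong to genes with a group at or near 0 counts, for which the fitted value is no bound.

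Ex against NC rests on the label NC, where the 6 inflammation genes summed to 5950 and 5960 CPM, against 32.8 and 53.7 in Ex. Their part in this comparison was not tested. Col1a1, Col3a1 and Col4a2 were lower in both Ex libraries than in NC, with log2 fold changes of -2.44 ± 1.37, -1.91 ± 1.52 and -2.87 ± 1.42 (SE, edgeR adjusted p = 0.968, 0.999 and 0.938). Without Ex 1 these values were -4.87, -6.70 and -6.21, and without Ex 2 they were -1.58, -0.91 and -1.99. Col4a1 had -0.79 ± 1.24 (edgeR adjusted p = 0.999), which turned to 0.24 with upper-quartile factors and ran from -1.84 without Ex 2 to -0.30 without Ex 1. Between ExDSS and Ex, the log2 fold changes were 2.23 ± 1.36 for Col1a1, 2.12 ± 1.54 for Col3a1 and 2.35 ± 1.39 for Col4a2 (SE, edgeR adjusted p = 0.376, 0.479 and 0.358). They were 4.76, 6.99 and 5.74 without Ex 1 and 1.46, 1.197 and 1.53 without Ex 2, while leaving out ExDSS 1 gave 1.48 for Col1a1 and leaving out ExDSS 2 gave 1.498 for Col4a2. Col4a1 had 0.98 ± 1.24 (edgeR adjusted p = 0.727), or -0.065 with upper-quartile factors, 2.11 without Ex 2 and 0.57 without Ex 1. Col4a4 had 6.11 ± 2.31 (SE, edgeR adjusted p = 0.236), or 2.89 without ExDSS 1 and 12.44 without Ex 1. These comparisons share NC or ExDSS libraries with those above. When the library Ex 1 was left out, which leaves the shallow Ex 2 as the only Ex library, edgeR called 6 collagen genes in Ex against NC and 7 in ExDSS against Ex, where 1596 (10.4%) and 1883 (12.2%) of all genes were called.

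The interaction estimates of the 4 main genes were 3.93 ± 1.91 for Col1a1, 3.00 ± 2.13 for Col3a1, 2.86 ± 1.77 for Col4a1 and 4.13 ± 1.94 for Col4a2 on the log2 scale (SE, edgeR adjusted p = 0.268, 0.472, 0.392 and 0.256). Each is the ExDSS against Ex value less the PC against NC value, so it rests on the labels NC and PC, whose inflammation genes ran against them. Over libraries left out the estimates ran from 3.10 to 6.40 for Col1a1, 2.02 to 7.82 for Col3a1 and 3.25 to 7.46 for Col4a2. These maxima came without Ex 1, which leaves the shallow Ex 2 as the only Ex library. For Col4a1 the range was 2.39 to 3.93. The smallest p belonged to Col13a1, at -13.21 ± 3.69 (edgeR adjusted p = 0.129), and Col9a2, at -11.61 ± 3.64 (adjusted p = 0.156), both with whole groups at 0 so that these values are no bounds. Col13a1 was at -7.43 without Ex 2 and -20.54 without NC 1.

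Genes that build, bind and cleave collagen were counted from 7 fixed lists, and edgeR called none of their members in the comparisons of 2 groups. In the interaction it called 1 of 10 tested genes of procollagen cleavage and crosslinking (Lox), 2 of 11 of collagen degradation (Mmp8 and Mmp13) and none of the other 5 lists. Over all 14567 genes tested, the interaction called 42 (0.288%). Lox encodes lysyl oxidase, which crosslinks collagen fibres. It was at 48.4 and 80.0 CPM in NC, 1.53 and 2.43 in PC, 2.45 and 0 in Ex, and 123 and 84.4 in ExDSS, an interaction of 10.99 ± 2.28 (SE, edgeR adjusted p = 0.0396; 6.80e-07 to 0.399 over 17 alternatives, called in 8). The collagenase gene Mmp13 was at 215 and 63.0 CPM in NC, 3.13 and 2.51 in PC, 4.19 and 1.49 in Ex, and 90.1 and 104 in ExDSS, an interaction of 10.56 ± 2.12 (SE, edgeR adjusted p = 0.0337; 3.27e-07 to 0.427, called in 8 of 17). Mmp8, the collagenase of neutrophils, was at 47.6 and 34.6 CPM in NC, 0.0728 and 0.314 in PC, 0 in Ex, and 53.1 and 59.5 in ExDSS (edgeR adjusted p = 0.0151; called in 11 of 17). All 3 were high in the libraries with high inflammation genes and low in the others, their part was not tested, and these calls too rest on the labels NC and PC.

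The other lists are given by the range of their sums and their 2 most abundant genes. The fibril partners, 14 tested, summed to 4923 and 6126 CPM in NC, 1459 and 2114 in PC, 2803 and 961 in Ex, and 5332 and 5010 in ExDSS, with a median log2 fold change of -1.37 in PC against NC and 1.30 in ExDSS against PC. Decorin (Dcn), which coats fibrils, was at 2750 and 2334 CPM in NC, 764 and 1160 in PC, 1719 and 14.9 in Ex, and 2122 and 2241 in ExDSS. Sparc, a collagen-binding secreted protein, was at 1289 and 2736 CPM in NC, 212 and 275 in PC, 323 and 739 in Ex, and 1854 and 1410 in ExDSS. Both gene levels separated NC and ExDSS from PC and Ex in every library. Neither passed the test in PC against NC (edgeR adjusted p = 1.0 for both).

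Basement membrane partners, 15 tested, summed to 298 and 372 CPM in NC, 170 and 198 in PC, 198 and 210 in Ex, and 615 and 349 in ExDSS, led by the laminin chains Lamb1 (28.8 to 148 CPM outside Ex 2) and Lamb3 (20.6 to 134 CPM outside Ex 2). Their sum was lower in both PC libraries than in NC and ExDSS, as for type IV collagen. The list of procollagen cleavage and crosslinking summed to 264 and 239 CPM in NC, 96.0 and 116 in PC, 101.8 and 64.1 in Ex, and 347 and 267 in ExDSS. After Lox its most abundant gene was Pcolce, an enhancer of procollagen cleavage, at 19.9 to 81.4 CPM outside Ex 2, where it had no count.

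Chain hydroxylation and folding differed less between the groups. Its sum was 643 and 929 CPM in NC, 630 and 577 in PC, 479 and 231 in Ex, and 971 and 611 in ExDSS, and the PC libraries overlapped those of ExDSS. P4hb, a subunit of prolyl hydroxylase, was at 116 to 349 CPM and Ppib, a folding enzyme, at 71.4 to 235 CPM outside Ex 2. Collagen receptors summed to 293 to 469 CPM outside Ex 2 and to 1750 CPM in Ex 2, of which the integrin chain Itgb1 held 1498 CPM. The second receptor gene, Ddr2, was at 47.9 to 172 CPM outside Ex 2. Collagen degradation summed to 1206 and 632 CPM in NC, 362 and 426 in PC, 467 and 186 in Ex, and 838 and 933 in ExDSS, with the inhibitors Timp3 and Timp2 as its most abundant genes.

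In the list of TGF-beta signalling to matrix, a pathway that induces collagen genes, the sum was 452 and 418 CPM in NC, 208 and 246 in PC, 248 and 367 in Ex, and 327 and 401 in ExDSS. Tgfbi was at 162 and 275 CPM in NC, 36.1 and 35.6 in PC, 35.9 and 50.7 in Ex, and 218 and 288 in ExDSS. Ctgf ran otherwise, at 126 and 13.0 CPM in NC, 59.2 and 84.4 in PC, 81.1 and 158 in Ex, and 0 and 0.839 in ExDSS. Tgfbi was higher in NC and ExDSS than in PC and Ex, and Ctgf, listed under its older symbol, was lowest in ExDSS and highest in Ex 2.

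**Figure D5:**
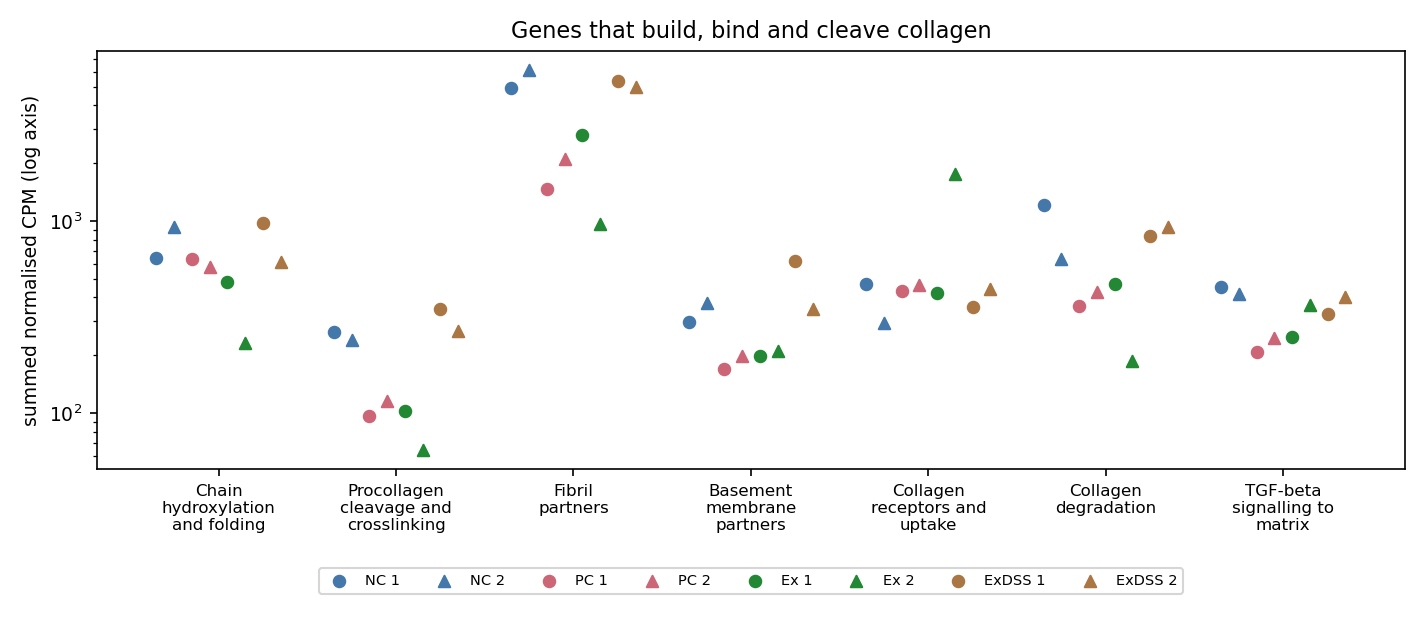
Summed normalised CPM (log axis) of 7 lists of genes that build, bind and cleave collagen, with 1 point for each library. Fibril partners and procollagen cleavage and crosslinking are higher in NC and ExDSS than in PC and Ex, and collagen receptors are highest in Ex 2 at 1750 CPM.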

How the data were processed

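Libraries were made with a kit that reads the 3′ ends of polyadenylated RNA, per the labels' protocols. The deposited values are raw read counts for each gene and library. Bowtie2, bedtools, edgeR and the build mm9 are named in the submitters' processing notes, without versions or roles. The table's collagen coordinates overlap the GRCm38 genes for all 44 members, and are printed as GRCm38. The strand setting of the counting is not named in the sources used here, so reads may be shared with genes that overlap exons of Col3a1 (Gm47302), Col5a1, Col15a1, Col4a2 and others.

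Counts were scaled by TMM and tested with edgeR 4.0.16 in R 4.3.3 (quasi-likelihood F test, robust, 1 coefficient per group, 4 residual degrees of freedom). The filter asked for a scaled count of 10 in at least 2 libraries and 15 in all, which left 14567 genes. The printed SE is the size of the log2 fold change over the square root of F, not a fitted SE. Folds against a group at 0 use a floor of 3 counts per library. Alternatives were 4 other scalings, 2 other filters, DESeq2 1.42.0, limma-voom 3.58.1, a replicate block and each library left out. Scripts were tested on data simulated with a smaller spread than here, so that test does not show which changes could be called in these data. The common dispersion, the spread between libraries fitted by edgeR, was 1.17. Depth was 1163147 to 12308537 counts a library, so proportions of rare chains in Ex 2 have wide intervals.

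The members, classes and lists were chosen with earlier results of these data known. Levels by library are given for members with a mean of at least 5 CPM, tests for Col1a1, Col3a1, Col4a1, Col4a2 and the 2 members of smallest p per comparison, and the 2 most abundant genes of each list. Counts of members without overlap were added as an alternative after seeing the data. Promoter sequence is from RefSeq (GRCm38.p6), where 35 of 44 members matched.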

Additional observations from a re-analysis of the deposited data

Results flagged for a closer look

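Lox, Mmp13 and Mmp8, whose products act on collagen, differed in their DSS effect with and without exosomes by the interaction test of edgeR. Lox had an interaction of 10.99 on the log2 scale, from -5.01 in PC against NC and 5.98 in ExDSS against Ex. Mmp13 had 10.56, from -5.61 and 4.94. The 2 values behind each are of like size and opposite sign, so the difference rests on the labels NC and PC, whose inflammation genes ran against them. Mmp8 had 19.82, a fitted value that is no bound because both Ex libraries were at 0. All 3 genes were high in the groups with high inflammation genes (NC and ExDSS) and low in PC and Ex. Within a group they did not always follow the inflammation genes library by library, and the part of those genes was not tested.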

How the results depend on the processing

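No collagen gene was called in PC against NC under any alternative run. Without the filter, edgeR called 1 of 41 collagen genes in ExDSS against PC (Col17a1), where 0.713% of all genes were called. Col17a1 had 954 of its 964 counts in ExDSS 1. It also called 1 of 41 in ExDSS against Ex and 1 of 41 in the interaction (Col13a1 in both), against 1.2% and 1.89% of all genes. DESeq2 called 2 in each of these comparisons (Col4a4 and Col13a1, and Col13a1 and Col18a1 in the interaction). Leaving out single libraries gave 0 to 6 in Ex against NC, 0 to 7 in ExDSS against Ex and 0 to 7 in the interaction, each maximum without Ex 1. The ratio of fibrillar to type IV counts became -0.49 in PC against NC with the mean of log2 CPM. In ExDSS against PC it was -1.37 over the core chains of types I, III and IV, -2.31 without the most abundant member of each class and -1.02 with the mean of log2 CPM. In Ex against NC it was 1.62 without the most abundant members and ran from -2.98 to 1.17 over single libraries left out. In ExDSS against Ex it was -2.64 without the most abundant members, -0.25 with the mean of log2 CPM and -1.59 to 2.56 over libraries left out. For single genes, Col4a1 turned to 0.24 in Ex against NC and -0.065 in ExDSS against Ex with upper-quartile factors, Col13a1 to -0.67 in Ex against NC without Ex 2, and Col1a2 in Ex against NC to 0.024 with limma-voom. Over libraries left out, Col1a2 ran from -3.76 to 1.76 in Ex against NC (0.71 without Ex 2), from -2.06 to 2.40 in ExDSS against Ex and from -3.93 to 1.53 in the interaction. The cause was not tested. Over all genes, DESeq2 called 86, 1526, 337 and 2046 in the comparisons of 2 groups, in the order PC against NC, ExDSS against PC, Ex against NC and ExDSS against Ex, and limma-voom 2, 1118, 0 and 421. Without the filter edgeR called 45, 132, 55 and 223 of 18518 genes (0.243%, 0.713%, 0.297% and 1.2%). The 42 genes of the interaction became 1672 with DESeq2, 92 with limma-voom, 67 with RLE factors, 6 with library totals alone, 350 without the filter, 18 at 5 CPM or more and 161 with the replicate block, and 0 to 1663 over libraries left out. Counts of members without overlap moved most without Ex 1 (21 lower in Ex than NC) and without Ex 2 (13 lower in ExDSS than Ex). Without NC 1, 14 were higher in PC than in NC. With 1 library left in a group, any gene reaches non-overlap more easily. The share of all genes was not counted in these settings, so whether collagen genes moved more than other genes was not tested.

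Replicate numbers did not pair the libraries (correlations of same-numbered deviations from -0.18 to 0.05). With the replicate block edgeR called 1 collagen gene in ExDSS against Ex and 1 in the interaction, Col13a1 in both (adjusted p = 0.0320 and 0.0273), where 28 (0.192%) and 161 (1.11%) of all genes were called. It called 41 (0.281%) of all genes and 0 collagen genes in ExDSS against PC.

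The depth of Ex 2 limits every value of the Ex group, since a gene under 4.47 CPM there cannot be told from 0.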
